A study of Mus musculus with 66 samples.

Results

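H3.3, a variant of histone H3, was mapped in cultured mouse cortical neurons after 5 hr of depolarisation with KCl, and the account below covers all 667 regions that the authors listed as different from unstimulated neurons, out of 57678 regions in the 7 lists of the series. A region entered the account by being in that list, with no further selection. Of these regions, 295 had more H3.3 after KCl (gained) and 372 had less (lost). All cultures were primary cortical neurons of strain C57bl/6, taken from embryos (E16.5) and grown for 8 days in vitro (DIV8). The KCl group had 3 H3.3 libraries, from neurons kept 5 hr in isotonic KCl, and the control group had 3 H3.3 libraries from neurons left unstimulated for 5 hr. Each group had 1 input library, made from chromatin without immunoprecipitation. The labels' protocol calls the culture experiments biological triplicates. Such cultures can also hold glia, and because the list holds changed regions only, the cell type could not be checked against its markers. Fewer cells of one type and less H3.3 per cell cannot be told apart in bulk chromatin.

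H3.3 is placed into chromatin throughout the life of a cell, independently of DNA replication, by chaperones such as HIRA at transcribed genes and ATRX with DAXX at repeats and telomeres. Neurons do not divide, so H3.3 is the main form of new H3 that they can put into nucleosomes. KCl depolarises the membrane and opens voltage-gated calcium channels. The calcium that enters then switches on immediate-early genes such as Fos, Fosb and Egr1, whose products control later genes.

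The sequences of 6 regions are given as examples, chosen after their values were seen. The first 4 lines, in which capitals mark CpG dinucleotides, give an intronic stretch of Fosb and of Wbp1l, both gained, and the 2 directly adjoining regions at an exon of Ttc7, of which the first was gained and the second was lost. All are on the plus strand of mm9, which is the same assembly as the reference used (NCBIM37). The Fosb stretch, chr7:19890761-19891060, had 54.0% G and C and 5 CpG, and the Wbp1l region, chr19:46696961-46697180, had 57.3% and 7 CpG. The Ttc7 regions, chr17:87739101-87739300 and chr17:87739301-87739500, had 54.5% and 57.0%, with 5 and 3 CpG. Over the whole list the median number of CpG per region was 2 in gained regions (quartiles 1 and 4). It was also 2 in lost regions (quartiles 1 and 3), so the marked CpG stand for no difference between the directions.
Fosb (gained): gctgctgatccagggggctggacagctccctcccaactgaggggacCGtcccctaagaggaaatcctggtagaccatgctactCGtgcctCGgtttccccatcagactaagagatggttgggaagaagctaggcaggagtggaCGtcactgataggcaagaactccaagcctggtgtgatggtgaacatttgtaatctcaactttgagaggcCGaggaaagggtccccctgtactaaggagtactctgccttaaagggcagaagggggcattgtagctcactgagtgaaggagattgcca
Wbp1l (gained): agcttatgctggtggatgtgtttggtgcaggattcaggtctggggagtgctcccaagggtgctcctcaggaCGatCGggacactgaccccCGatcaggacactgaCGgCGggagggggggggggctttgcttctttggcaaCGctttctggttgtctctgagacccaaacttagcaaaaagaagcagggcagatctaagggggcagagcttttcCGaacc
Ttc7 first region (gained): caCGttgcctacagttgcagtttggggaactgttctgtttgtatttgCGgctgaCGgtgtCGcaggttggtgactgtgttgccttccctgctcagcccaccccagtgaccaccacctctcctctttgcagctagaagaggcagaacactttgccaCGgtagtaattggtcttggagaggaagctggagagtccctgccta
Ttc7 second region (lost): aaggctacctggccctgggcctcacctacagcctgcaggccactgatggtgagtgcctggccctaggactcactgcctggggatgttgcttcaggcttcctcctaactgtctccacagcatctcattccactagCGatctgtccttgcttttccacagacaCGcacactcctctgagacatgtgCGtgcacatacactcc

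The other 2 are intronic and lost, and capitals mark a match to TGANTCA, the core of the site bound by AP-1, the dimer of Fos and Jun proteins. The Smarcc1 stretch, chr9:110108111-110108410, had 45% G and C. Its match lies outside the central 200 bp of the region, so Smarcc1 is not among the regions counted with the motif below, while Ube3c is. The Ube3c region, chr5:29908221-29908420, had 32.5%.
Smarcc1 (lost): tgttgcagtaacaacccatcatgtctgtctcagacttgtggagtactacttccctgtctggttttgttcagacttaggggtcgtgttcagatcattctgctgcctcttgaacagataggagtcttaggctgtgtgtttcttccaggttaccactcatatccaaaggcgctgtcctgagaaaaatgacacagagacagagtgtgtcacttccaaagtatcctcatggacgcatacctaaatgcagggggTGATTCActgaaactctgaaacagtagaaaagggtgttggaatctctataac
Ube3c (lost): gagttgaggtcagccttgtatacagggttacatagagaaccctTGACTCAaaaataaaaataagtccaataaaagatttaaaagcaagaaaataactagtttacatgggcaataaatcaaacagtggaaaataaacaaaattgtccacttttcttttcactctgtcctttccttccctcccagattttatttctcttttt

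Values per region are read counts that the authors normalised for depth, given as mean ± SD over 3 libraries (n = 3), and each region is 200 to 400 bp long. In gained regions the median of the group means was 3.81 in control and 13.3 in KCl. In lost regions it was 12.9 (quartiles 11.2 and 14.6) in control and 3.43 in KCl. These levels rest on few reads: a gained region had a median of 42 reads over the 3 KCl libraries and 11 over the 3 control libraries, and a lost region had 11 and 37. One read stood for 0.951 ± 0.0636 normalised counts in KCl and 1.06 ± 0.109 in control libraries, a difference that did not pass (two-sided exact permutation test, n = 3 and 3, p = 0.3, where the smallest possible p is 0.1).

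In all 667 regions the 3 KCl values lay entirely above or entirely below the 3 control values, a share of 100% that comes with the listing and is read as nothing more. The spread within groups was also below counting error. The chi-square of the reads per degree of freedom, which averages 1 for counting error alone, averaged 0.301 over the KCl libraries of gained regions and 0.386 over the control libraries of lost regions. On the lower side of each comparison it was 0.811 and 0.870. A list of regions kept for a clear separation of 3 against 3 libraries holds those with little spread, so the authors' p-values of listed regions cannot be read as those of regions picked beforehand.

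By the authors' adjusted p, 20 of the 667 regions (3.00%) were at 0.05 or less, 11 gained (1.65% of the list) and 9 lost (1.35%). A further 246 lay between 0.05 and 0.1, and the adjusted p of most others was just above 0.1. "Rose" and "fell" below are kept for the 20, and all other regions are given by their values. The adjusted p and log2 fold changes are those of the authors' deposited table.

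Among the 20 were both chromatin genes and genes of cell shape and adhesion. Smarcc1, which codes for the BAF155 core subunit of the BAF chromatin remodeller, fell in an intron from 35.4, 30.8 and 33.0 in the control libraries to 4.92, 8.78 and 14.9 in the KCl libraries. It had the smallest adjusted p in the authors' deposited table (0.00606, log2 fold change -1.79), and 1 KCl library was much nearer to the controls than the others. Macroh2a1 (H2afy in the file), which codes for the histone variant macroH2A1, fell at a coding exon from 20.3 ± 1.32 to 5.96 ± 2.61, with an adjusted p of 0.0399 in the authors' deposited table. Rgmb, a co-receptor for bone morphogenetic proteins that also acts in axon guidance, fell 2508.5 bp inside its start from 17.3 ± 3.67 to 3.803 ± 1.003. Ephx1, an epoxide-metabolising enzyme, fell within its first kilobase from 16.8 ± 1.57 to 4.17 ± 1.64. Lims1, which codes for the integrin-linked adaptor PINCH1, fell in an intron from 16.6 ± 2.62 to 4.12 ± 2.51.

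The genes that rose included several that act on actin and adhesion. Shroom3, an actin-binding protein that drives apical constriction in epithelia, had 4.72, 4.10 and 1.94 in control and 12.8, 16.7 and 19.8 in KCl. Arhgap31, a GTPase-activating protein for Cdc42 and Rac, rose from 5.96 ± 0.172 to 21.0 ± 4.09, and its control values were the most alike of the 20. Efs, a docking protein of the Cas family, rose at a coding exon from 6.21 ± 1.52 to 20.7 ± 3.48. Itgb4, the integrin beta 4 subunit, rose from 3.43 ± 1.28 to 15.5 ± 0.515. Macrod1, an enzyme that removes ADP-ribose, rose from 3.53 ± 2.17 to 15.8 ± 2.65. Fosb rose from 9.44, 8.20 and 8.73 to 24.6, 25.5 and 29.8, the highest KCl level of any gained region, and the other activity gene was Egr1.

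The remaining 8 of the 20 carried no gene name in the list. The reference annotation (GENCODE vM1) placed 1 of them in an intron of Pde10a, a striatum-rich phosphodiesterase gene, and 1 in an intron of Tifa, an adaptor of innate immune signalling. The Pde10a region rose from 5.72 ± 2.44 to 19.9 ± 1.10 and the Tifa region from 5.14 ± 2.93 to 19.0 ± 3.06. A second Tifa region, 1540 bp away, was listed as lost. The region with the largest fold of the whole list lay in a gene desert of chromosome 19 (50129401 to 50129600) and fell from 9.44, 9.23 and 8.73 to 0, 0.88 and 0.99, which are 0 or 1 read in each KCl library.

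**Figure D1:**
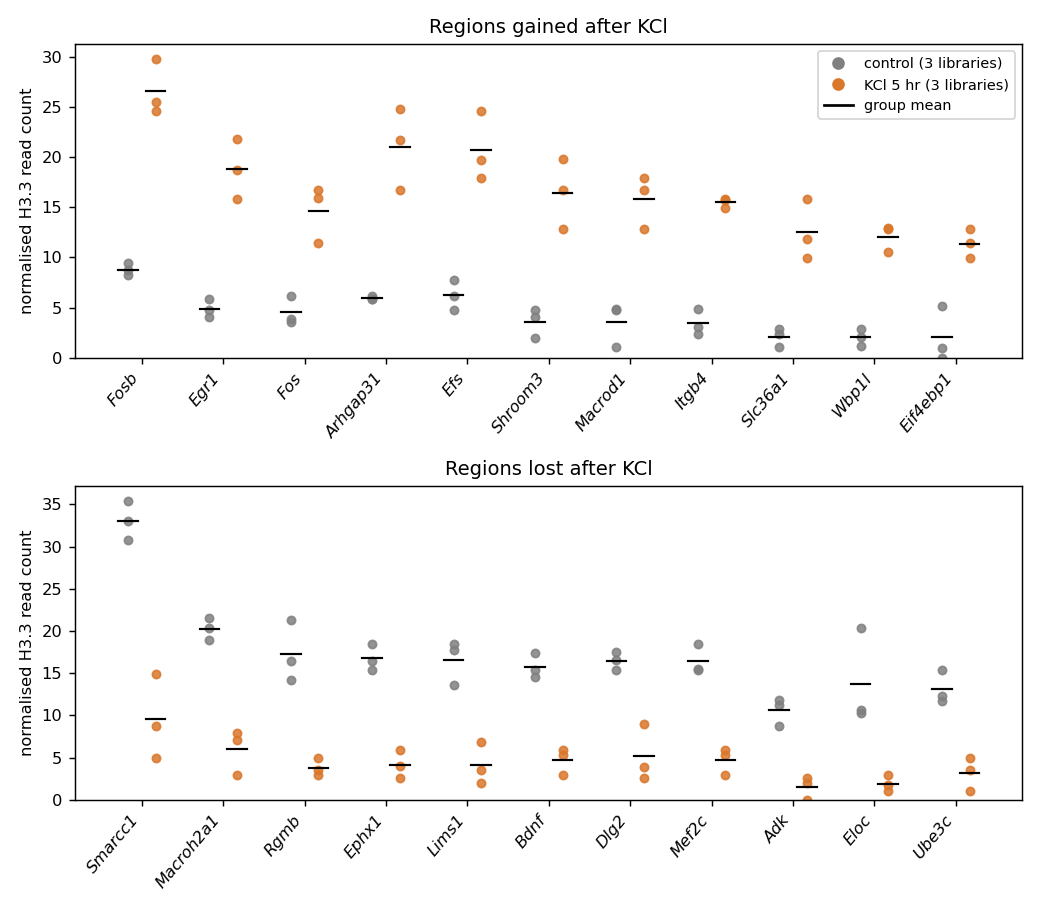
Normalised H3.3 read count (y axis, linear) in each of 3 control libraries (grey) and 3 KCl libraries (orange) for 11 gained and 11 lost regions, with black lines at the group means. The groups do not overlap in any region, as in the whole list, and in Smarcc1 the KCl values spread from 4.92 to 14.9.

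Beyond these, the largest folds were at genes of varied function. Ern2, an endoplasmic reticulum stress sensor, had 9.92 ± 1.65 in control and 1.28 ± 0.608 in KCl. Adk, the enzyme that clears adenosine, had 10.6 ± 1.64 and 1.54 ± 1.37. Eloc, the elongin C subunit of ubiquitin ligases, had 10.6, 10.2 and 20.4 in control and 0.98, 1.76 and 2.98 in KCl, so that 1 control library stood well above the other 2. On the gained side, Slc36a1, a lysosomal amino acid transporter, had 2.10 ± 0.967 and 12.5 ± 3.00. Eif4ebp1, the mTOR-regulated repressor of translation initiation, had 2.03 ± 2.73 and 11.4 ± 1.44, with no read in 1 control library.

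Most listed regions were inside genes. Of the 475 regions with a gene, on 452 genes, 392 were in a gene body and 83 at a promoter by the authors' classes. Long genes were hit more often: of 22238 protein-coding genes, 2.02% had a region, but the share was 0.319% of genes under 10 kb and 12.5% of genes over 300 kb. The median length was 83.4 kb for genes with a region and 15.5 kb for all. The share of a gene list with a region is therefore to be read with the length of its genes, whose median per list ran from 0.970 to 298.3 kb. Promoters were 9.49% of gained and 14.8% of lost regions. In the authors' 1 kb promoter class 6 regions were gained and 20 lost, and in their separate proximal promoter class 3 and 3. Within 1 kb of the nearest coding gene start of the reference annotation, 10 were gained and 21 lost. In gene deserts 1 was gained and 19 lost. Coding exons, by the reference annotation, held 33 gained and 21 lost regions.

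Activity-induced genes differed in direction. All 3 listed of 32 immediate-early genes were gained, against 44.2% of the whole list, and 2 of them, Fos and Egr1, lay past the end of the gene. The centre of the Fos region was 882.5 bp and that of Egr1 941.5 bp beyond the annotated end. In all, 9 gene-body regions were past the gene end, 6 gained and 3 lost. Fos had 3.54, 6.15 and 3.88 in control and 16.7, 11.4 and 15.9 in KCl. Of 22 late-response genes only Bdnf had a region, in an intron. This neurotrophin gene, one of the best known targets of neuronal calcium signalling, had 15.4, 17.4 and 14.6 in control and 5.90, 5.27 and 2.98 in KCl, with an adjusted p of 0.0863 in the authors' deposited table. Among transcription factors linked to activity, Mef2c, a calcium-regulated factor that limits synapse number, had 16.4 ± 1.74 and 4.72 ± 1.54, and Creb5 had 9.78 ± 0.778 and 2.16 ± 1.27. Npas3 and Foxp1 were listed as gained, Foxp1 with 3.07 ± 1.98 and 12.1 ± 1.63. With Zbtb16, listed as lost, those were the 5 of 100 genes of that list with a region. Of 265 transcription factor genes of neural development 6 had one, 1 gained (Foxp1 again) and 5 lost, among them the upper-layer gene Cux2, with 17.1 ± 3.88 and 5.63 ± 1.54.

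Ion channels and receptors were listed in both directions. Of 163 genes for voltage-gated and calcium-activated channels, 11 (6.75%) had a region, 7 only gained, 3 only lost and 1, the BK channel gene Kcnma1, both. Their median length was 40.5 kb. Of these, 8 are named as calcium channel subunits, a grouping by symbol, Cacng4 included, made after the values were seen. Among the 8, 6 were listed as gained and 2 as lost, where 44.2% of the whole list was gained. The pore subunits of the P/Q, N, L and T types were all represented. Cacna1a had 4.80 ± 2.41 in control and 14.8 ± 1.02 in KCl, Cacna1b had 4.95 ± 0.904 and 14.9 ± 2.51, and Cacna1c had 4.81 ± 1.74 and 14.6 ± 2.03. The T-type gene Cacna1h had 2.44 ± 0.436 and 10.4 ± 0.459, while its relative Cacna1g had 14.1 ± 1.581 and 4.35 ± 1.62. All of these had an adjusted p of 0.110 in the authors' deposited table. Glutamate receptor genes (4 of 26, median length 298.3 kb) were Gria1, Grik3 and Grm5, listed as lost, and Grik4, listed as gained. Gria1, an AMPA receptor subunit gene, had 11.0 ± 1.89 and 2.64 ± 2.49. The GABA-A subunit gene Gabrb1 had 9.44, 9.23 and 11.6 in control and 2.95, 2.63 and 0.99 in KCl.

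Synaptic genes were split as well. Of 33 postsynaptic genes 8 (24.2%, median length 106.4 kb) had a region, 5 gained and 3 lost. Dlg2, the scaffold PSD-93, had 16.53, 15.4 and 17.5 in control and 3.93, 2.63 and 8.93 in KCl. Dlgap1 was listed as lost, and its relative Dlgap2 and the scaffold Shank2 as gained. Camk2a, the calcium-activated kinase of the postsynaptic density, had 7.24 ± 2.30 and 21.9 ± 3.27, with an adjusted p of 0.0683 in the authors' deposited table. At the presynaptic side (4 of 97 genes), Nsf and Rims2, which act in vesicle fusion and priming, were listed as lost, and Syn3 and Cplx2 as gained. Of 198 adhesion and guidance genes, 13 had a region, 5 gained and 8 lost, with a median length of 105.1 kb. Ephb1, a receptor for ephrins, had 3.28 ± 2.46 and 13.6 ± 2.07.

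**Figure D2:**
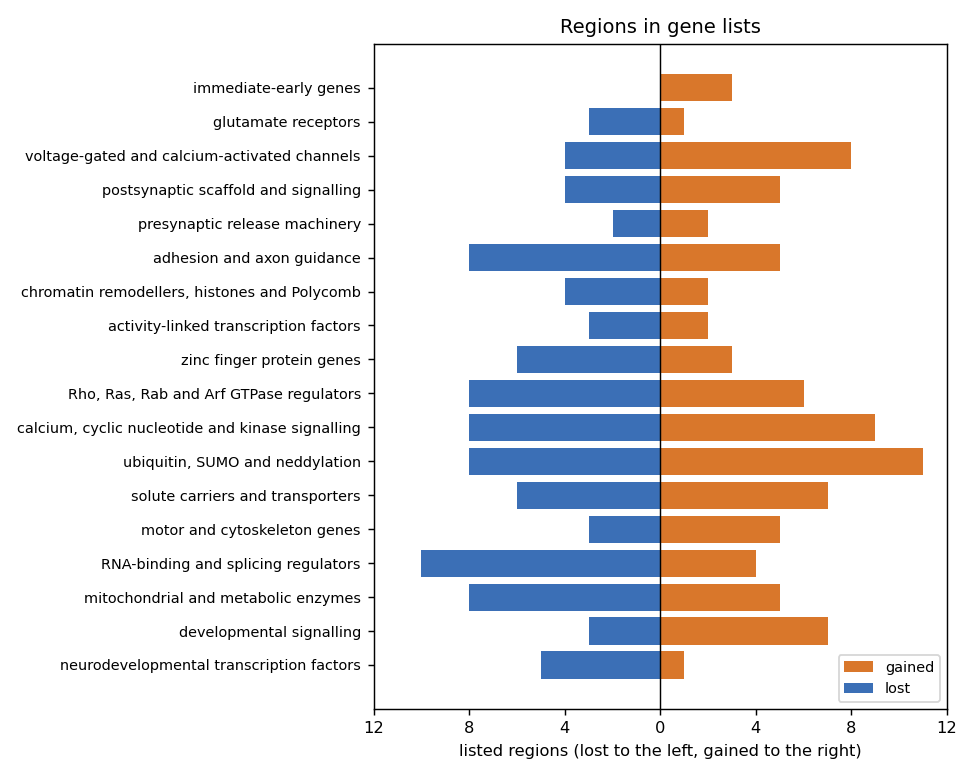
Number of listed regions lost (blue, to the left) and gained (orange, to the right) in each gene list with at least 3 regions. Bars count regions, not genes, and lists overlap; over the whole list 44.2% of regions were gained.

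Genes of protein turnover gave the most regions of any list, but theirs was the largest list after the 1424 olfactory and vomeronasal receptor genes. Of 519 ubiquitin, SUMO and neddylation genes 16 (3.08%, median length 26.1 kb) had a region, against 2.02% of all protein-coding genes. Of their regions 11 were gained and 8 lost. The related HECT ligases Ube3b and Ube3c each had 2 regions, in opposite directions. Ube3b had 4.25 ± 1.18 and 3.52 ± 0.595 in control at its 2 sites and 13.7 ± 2.17 and 12.2 ± 2.53 in KCl. Ube3c had 12.9 ± 2.64 and 13.1 ± 1.98 in control and 2.64 ± 2.49 and 3.15 ± 2.01 in KCl. Btbd9, a BTB-domain gene associated with restless legs syndrome, was gained at both of its sites. Cops2, a subunit of the COP9 signalosome that strips Nedd8 from cullins, had 11.4 ± 2.72 and 12.3 ± 1.45 in control and 1.86 ± 0.831 and 3.08 ± 2.75 in KCl.

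RNA-binding genes had 4 regions gained and 10 lost, on 13 of 297 genes (median length 24.9 kb), where 44.2% of the whole list was gained. Msi2, a Musashi translational regulator, was lost at 2 sites, with 14.9 ± 2.59 and 12.6 ± 0.892 in control and 4.06 ± 1.15 and 3.43 ± 1.28 in KCl. Srrm4, which drives the splicing of neural microexons, had 11.8, 9.23 and 10.7 in control and 2.95, 1.76 and 0.99 in KCl. The helicase gene Dhx9 had 9.44, 10.2 and 8.73 in control and 0, 1.76 and 2.98 in KCl. The adjusted p passed 0.05 in none of these 14 regions in the authors' deposited table. Of 245 chromatin genes, 6 (2.45%) had a region. Besides Smarcc1 and Macroh2a1, Chd9 and Kat6b were listed as lost, and the deacetylase genes Hdac4 and Hdac7 as gained, Hdac7 with 4.95 ± 0.904 and 15.7 ± 2.43.

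Signalling and metabolism filled much of the rest. Of 405 genes for calcium, cyclic nucleotide and kinase signalling 17 had a region, 9 gained and 8 lost. The list is defined by symbol and also takes in genes that code for no kinase, such as Cdkal1, a tRNA-modifying enzyme gene. Of the protein kinase C genes, Prkca and Prkce were listed as lost and Prkcd as gained. Prkce had 12.9 ± 1.63 in control and 3.19 ± 1.57 in KCl. Plcb1 had 18.7 ± 2.39 and 5.79 ± 3.59, and Mapk10, the neuronal JNK3, had 9.85 ± 0.707 and 1.90 ± 0.124. Of 334 regulators of small GTPases 14 had a region, 6 gained and 8 lost. Zinc finger protein genes gave 3 gained and 6 lost regions on 8 of 454 genes, solute carriers and transporters 7 and 6 on 13 of 474 genes, and motor and cytoskeleton genes 5 and 3 on 8 of 212 genes, of which Shroom3, Efs and Lims1 passed the threshold. Of 459 mitochondrial and metabolic genes 13 had a region, 5 gained and 8 lost. In developmental signalling 7 of the 10 listed genes were gained, among them Notch1 (4.40 ± 2.93 and 14.4 ± 2.92), Wnt11 (4.59 ± 2.20 and 13.9 ± 0.791) and Gli2 (3.89 ± 0.820 and 13.0 ± 2.37). Against input these 3 were less than 2-fold apart, with ratios of 0.56 and 1.10 at Notch1, 0.82 and 1.53 at Wnt11 and 0.95 and 1.68 at Gli2, and the implied input was higher in KCl at each (7.86 and 13.1, 5.598 and 9.11, 4.10 and 7.75). The neurotrophin receptor gene Ntrk3 and the neuregulin gene Nrg3 were listed as lost.

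Cell-type markers were few. Neuron markers gave 2 regions (Camk2a and Rbfox1, both gained) on 25 genes and astrocyte markers gave 1 (Gpc5, gained) on 17 genes. Interneuron, oligodendrocyte, microglia, and endothelial and pericyte markers gave none, on 16, 16, 15 and 14 genes, and neither did 1424 olfactory and vomeronasal receptor genes, whose median length was 0.970 kb. Among housekeeping genes, Ywhaz, a phosphoprotein-binding adaptor gene, lost H3.3 in the list, from 13.1 ± 3.50 to 3.55 ± 2.13 after KCl (SD, n = 3).

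In 23 genes the list held 2 regions, which in 13 were both lost, in 4 both gained and in 6 opposite. Lost regions were also the more common over the whole list, where 44.2% were gained. At Ttc7, a subunit gene of the complex that brings PI4-kinase to the plasma membrane, the 2 regions printed above adjoin with no gap. The first had 3.55 ± 1.37 in control and 13.3 ± 2.11 in KCl and the second had 13.0 ± 0.360 and 3.55 ± 2.159, so the higher group changed from one 200 bp stretch to the next. The ratio to input of the first went only from 0.73 to 1.13, and the input level implied by count and ratio from 4.86 to 11.8, so its gain cannot be told apart from a difference in input. Zfp148, a zinc finger factor gene, had 2 lost regions 2980 bp apart, and Dtx4, a Notch-linked ubiquitin ligase gene, had 2 lost regions 4540 bp apart. Dner, which codes for a neuronal Notch ligand, was lost at both of its sites, the second with 15.1 ± 3.41 in control and 4.72 ± 0.702 in KCl.

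Base composition moved with direction. Gained regions had a median of 51.4% G and C and lost regions 44.2%, against 41.5% in 51128 windows of 200 bp taken every 50000 bp along the genome. In tertiles of the list by GC content, 13.3%, 42.3% and 77.5% of regions were gained (exact 95% intervals 9.18 to 18.5, 35.7 to 49.1 and 71.4 to 82.8, for counting error only). The mean counts per library restate these shares, because the listing separates the groups in every region, and they add no support. From the lowest to the highest tertile they ran from 4.40 to 4.58 up to 11.6 to 11.8 in the KCl libraries, and from 10.7 to 11.8 down to 6.10 to 6.28 in the control libraries. The same order of shares held within gene bodies (22 of 144, 58 of 125 and 99 of 123 gained) and outside genes and gene deserts (6 of 42, 27 of 64 and 54 of 66). In the authors' 1 kb promoter class, 5 of 11 regions of the highest tertile were gained, and in their proximal promoter class 2 of 5. The gene groups above differed in base composition too: the median was 44.8% in regions of RNA-binding genes, 49.5% in those of channel genes and 52.3% in those of immediate-early genes. The part of base composition in the direction of any single group was not tested.

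**Figure D3:**
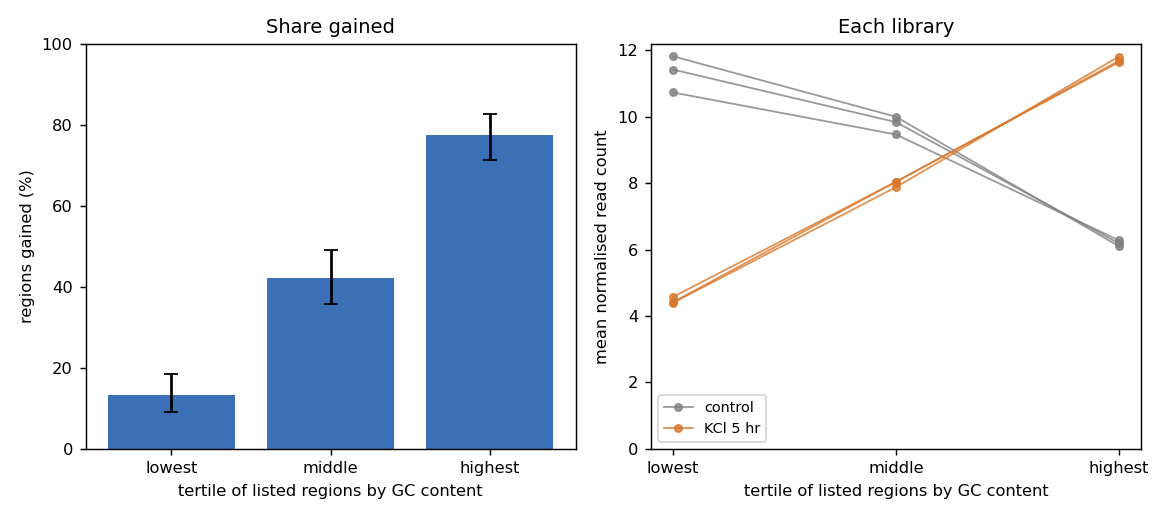
Left, share of listed regions that were gained (%) in tertiles by GC content, with exact 95% intervals as error bars, rising from 13.3% to 77.5%. Right, mean normalised read count of each of the 3 control (grey) and 3 KCl (orange) libraries in the same tertiles: KCl libraries rise and control libraries fall, which restates the shares on the left because the groups do not overlap in any listed region.

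Matches to TGANTCA were found on either strand within the central 200 bp of 42 of 372 lost regions (11.3%) and 15 of 295 gained regions (5.08%), against 5.98% of the genome windows. In the tertile with the lowest GC content the shares were 13.8% of lost regions, 3.33% of 30 gained regions and 6.19% of genome windows, and in the highest tertile 8.00%, 5.81% and 4.41%. In the middle tertile they were 8.66%, 4.30% and 6.34%. The lost regions with a match numbered 27 of 195, 11 of 127 and 4 of 50 from the lowest to the highest tertile, so the share in the highest rests on 4 regions, and the differences from genome windows were not tested. The CRE motif TGACGTCA, bound by CREB, was in 1 gained region, at Slc25a26, a mitochondrial carrier gene, and in no lost region. A MEF2-like pattern, CTA and TAG with 4 bases between them, was in 4.57% of lost and 1.69% of gained regions, against 3.46% of genome windows. No region held GCGTGGGCG, the motif of EGR factors. These are matches of letters and not measured binding.

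The ratio of H3.3 to input, as deposited, moved the same way as the count in 665 of 667 regions and by at least 2-fold in 624. Because the ratio is built from the listed count, the listing itself favours this. In gained regions its median was 0.57 in control and 1.84 in KCl, so H3.3 reads were below the input level in control. In lost regions it was 2.79 in control and 0.67 in KCl. In 2 lost regions the ratio was higher in KCl. At Pafah1b1, a dynein regulator gene mutated in lissencephaly, it was 3.86 in control and 5.15 in KCl. At Dmxl2, a synaptic vesicle protein gene, it was 2.63 and 3.25. The input level implied by count and ratio was 3.36 in control and 0.674 in KCl at Pafah1b1, and 3.75 and 0.673 at Dmxl2. Both KCl ratios thus rest on a very low input. At several gained regions the ratio hardly differed. Ratios less than 2-fold apart were also found at Shank2 (0.85 and 1.35), Prkcd (0.84 and 1.47), Fgfr2 (1.59 and 2.94) and the first Ube3b site (1.03 and 1.93), and on the lost side at 1 of the 2 Zfp148 regions (3.09 and 1.72). The ratio at Camk2a was 1.13 and 1.38, and at Ptk2b, a calcium-activated tyrosine kinase gene, 2.71 and 3.20. The input level implied by count and ratio at Camk2a was 6.40 in control and 15.9 in KCl, so with 1 input library a group the gain there cannot be told apart from a difference in input. Over all regions the implied input was higher in KCl by a median of 0.107 on the log2 scale, by 0.075 in the lowest and 0.170 in the highest GC tertile.

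**Figure D4:**
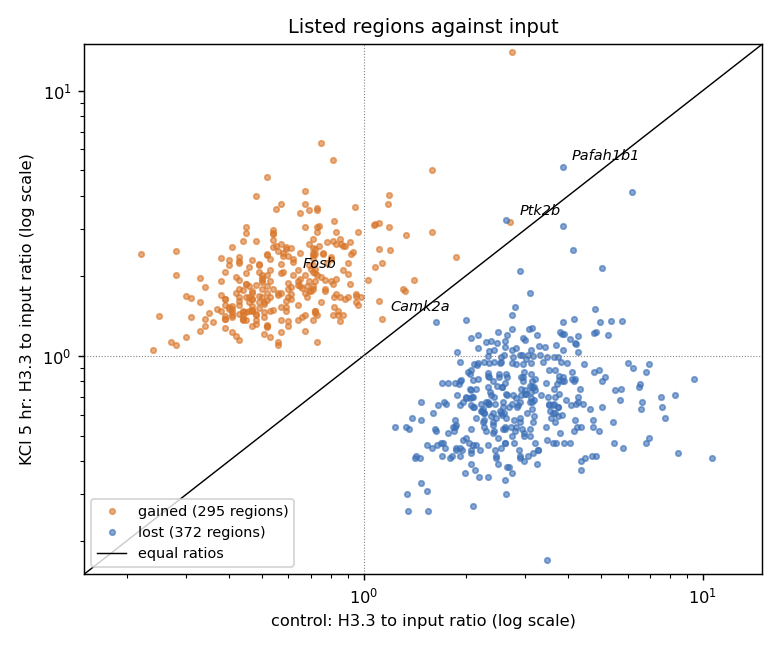
Deposited ratio of H3.3 to input in control (x axis) and KCl (y axis), both on log scales, for 295 gained (orange) and 372 lost (blue) regions, with the line of equal ratios. Gained regions lie above the line; 2 lost regions (Pafah1b1 and Dmxl2) also do, and Camk2a and Ptk2b lie close to it.

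The 30 min and 2 hr lists, made from other libraries with their own controls, shared no region with the 5 hr list by even 1 bp. Gene names were shared: 22 genes with the 30 min list (4.87% of the 5 hr genes and 6.59% of those at 30 min) and 45 with the 2 hr list (9.96% and 10.4%). Where a gene had 1 direction in both lists, it was the same in 16 and opposite in 6 at 30 min, and the same in 28 and opposite in 13 at 2 hr. At 2 hr 14.4% of regions were gained, and at 30 min 20.1%. The tables were normalised separately, so levels are compared within a time only. Dab1, Dlg2 and Limch1 were lost and Ephb1 was gained in every one of the 3 lists, at different sites. The name Fgfr2 was also attached to gained regions in all 3. The 5 hr region starts 615500 bp from that of 30 min and 2165960 bp from that of 2 hr, so the shared name does not place them in 1 gene. Other genes named in all 3 lists did not keep 1 direction: some that were lost at 5 hr had gained regions at an earlier time.

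Some sites of different times lay close together. At Siah2, a ubiquitin ligase gene, the regions of 30 min and 5 hr start 220 bp apart. The authors' group means there were 14.3 in control and 4.43 in KCl at 30 min, and H3.3 had 2.68 ± 2.57 and 12.2 ± 2.34 at 5 hr, the opposite direction. At Rnf157 the regions start 440 bp apart, at Srrm4 580 bp and at Bzw2 620 bp, and these were lost at both times. Cacna1b was gained at 2 hr and at 5 hr, at sites 8220 bp apart, and Shroom3 at sites 48240 bp apart. Cacna1c was lost at 2 hr and gained at 5 hr. CATCH-IT, a capture of freshly synthesised histones run on the same kind of culture, listed 53020 regions. Only 6 of the 667 H3.3 regions (0.9%) overlapped one, 1 of them in the same direction. At Rnf19b and Mthfd1, where H3.3 was listed as lost, CATCH-IT was listed as gained. Its group means were 0 in control at both, and 37.8 and 4.56 in KCl. In each of the 6 overlaps the CATCH-IT mean of 1 group was 0, so its direction there rests on presence against absence of signal.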

How the data were processed

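H3.3 chromatin immunoprecipitation libraries (3 KCl, 3 control, 1 input each) were aligned to mm9 with Bowtie 0.12.7 and handled with bedtools 2.16.2, per the submitters' processing notes; no source used here names the region caller. The authors deposited, per region, normalised read counts of each library packed in one field (a signal), group means of that signal, a ratio to input, a log2 fold change, and p-values and adjusted p-values, per the file headers. The list holds called regions only, each at least 3-fold apart, so no test was rerun. The packed values carry no library names.

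From the files, the value of 1 read was recovered from the steps of low values, and direction, spread, GC content, position (GENCODE vM1), motif matches and overlaps (at least 1 bp) were computed with Python 3.11.15, pandas 2.3.3, scipy 1.17.1 and pysam 0.24.0. Of 452 genes, 449 matched a protein-coding gene; symbols were updated from RefSeq names. Named are regions whose adjusted p reached 0.05, up to 4 genes per list by smallest adjusted p, the 5 largest folds each way, genes with 2 regions and genes shared with other times; others were chosen after their values were seen, as were the sequences shown. Gene lists and members were chosen with earlier results of these data known. Steps were tested on simulated data. Alternatives are given in the closing section. Intervals cover counting error only. A few genes of the list are not reported here.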

Additional observations from a re-analysis of the deposited data

How the results depend on the processing

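No paired analysis was possible because the packed values carry no library names or numbers; for the same reason values within a sequencing lane could not be had. The count of regions depended on the threshold of the authors' adjusted p: 20 at 0.05 (11 gained, 9 lost), 266 at 0.1 (118 gained, 148 lost) and 657 at 0.2 (293 gained, 364 lost). At an unadjusted p of 0.001 it was 667 (295 gained, 372 lost). Leaving out 1 value left 569 to 596 of the 667 regions at least 3-fold apart, 365 under each of the 6 omissions. The direction of every region and the share gained (44.23%) were fixed by the listing, since the groups overlap in no region, and show no stability. With GC content taken over 500 bp more on each side, 19.2% instead of 13.3% of the lowest tertile were gained. With classes of the reference annotation, 62.6% instead of 57.3% of lost regions were in gene bodies and 23.4% instead of 28.0% between genes. Of 1190 alternative log2 fold changes of the 170 named regions, 1182 moved by less than 1 SD, and 8 by more. Most of these alternatives leave out 1 value, and the SD is taken from the same values. A shift within 1 SD was therefore nearly fixed beforehand and shows no stability. The signs of these fold changes could not change either, because the groups overlap in no region. Counting every region with an assigned gene gave the same list counts, since regions between genes carry no gene. Library totals are not in the list, so depth limits the reading to 2 to 94 reads per region and group.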

Other observations

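Several genes of shared function were grouped after their values were seen. Over the whole list 372 of 667 regions were lost, so a few genes in 1 direction say little about their group. Genes linked to the amyloid precursor protein were listed as lost: App itself had 13.2 ± 2.21 in control and 3.77 ± 0.719 in KCl, its adaptor Apba1 had 20.9 ± 3.96 and 6.77 ± 4.29 at one site and 14.2 ± 2.09 and 4.13 ± 0.746 at another, and Ide, an amyloid-degrading protease gene, had 11.0 ± 2.14 and 2.53 ± 0.513. Both listed genes of microRNA biogenesis were lost, Drosha with 17.6 ± 5.99 and 4.64 ± 2.53 and the exportin gene Xpo5 with 11.9 ± 1.48 and 3.11 ± 1.21. Dab1, the intracellular adaptor of Reelin signalling, had 18.6 ± 5.57 and 5.67 ± 1.56.

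Matrix and integrin genes gave 4 gained genes (Itgb4, Itga9, Lama3 and Col17a1) and 2 lost ones (Col15a1 and Col4a6). Itga9 had 2.51 ± 0.894 and 11.7 ± 1.53, and Lama3 had 4.51 ± 0.849 and 14.2 ± 0.577. DNA repair genes were divided, with Ercc6 (3.21 ± 2.10 and 13.6 ± 1.48) and the glycosylase gene Nthl1 gained and Ercc8 (14.8 ± 1.96 and 4.72 ± 1.57) and Ddb2 lost. Of chromatin-linked genes outside the list used, Arid2, Rcor1, Ankrd11, Ctbp2, Epc1, Mllt3 and Tle1 were among those lost and Yeats2 was gained; Rcor1, a partner of the REST repressor, had 12.4 ± 2.54 and 2.89 ± 1.09. The X chromosome held 5 regions (0.03 per Mb), against 0.154 to 0.391 per Mb on the autosomes; L1cam, a cell adhesion gene, was the 1 gained region there.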
